A study of Mus musculus with 24 samples.

Results

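The calcineurin-NFAT pathway was followed in RNA-Seq of the mouse hippocampus (HIP) and entorhinal cortex (EC) through Dyrk1a, Rcan1, Rcan2, Ppp3ca, Ppp3cb, Ppp3r1, Nfatc1, Nfatc2, Nfatc3 and Nfatc4. These 10 genes, of 55385 counted, were taken by symbol and matched by Ensembl identifier on the GRCm38 build. The study compared male Ts65Dn mice, a model of Down syndrome, with their wild-type (wt) littermates at 5 to 6 months of age, without any treatment. The 4 groups were wt HIP, Ts65Dn HIP, wt EC and Ts65Dn EC, with 6 libraries each, and every mouse gave a library of each region, so that 24 libraries came from 12 mice. Their totals ranged from 23128589 to 40476492 counts.

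All mice were bred in an F1 B6C3B background, and the Ts65Dn mice came from a subline of The Jackson Laboratory. They carry a freely segregating minichromosome that joins the Mir155 to Zbtb21 segment of mouse chromosome 16 (Mmu16), which corresponds to a part of human chromosome 21, to a centromeric piece of Mmu17 without such a counterpart. The effects of the Mmu16 and Mmu17 pieces cannot be told apart in these mice. In dissected tissue, fewer cells of a type and less RNA per cell cannot be told apart either.

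Calcineurin is a phosphatase that calcium and calmodulin switch on, built from a catalytic A subunit and a regulatory B subunit, and it is abundant in forebrain neurons. It removes phosphates from the NFATC transcription factors, which then enter the nucleus. The kinase DYRK1A helps to phosphorylate them again for export, and the RCAN proteins bind calcineurin and restrain it. Dyrk1a and Rcan1 both lie in the triplicated Mmu16 segment, and the other 8 genes lie outside it.

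Before the results, the genotype labels were checked on 92 expressed Mmu16 genes of the triplicated segment. The median of their folds over the wt mean was 1.43 to 1.53 for 5 Ts65Dn HIP libraries and 1.44 to 1.5 for 5 Ts65Dn EC libraries. For the library labelled Ts65Dn replicate 3, this median was 0.994 in the EC and 1.02 in the HIP. The wt EC libraries were at 0.981 to 1.01 and the wt HIP libraries at 0.984 to 1.01. Both libraries of this mouse thus stood at the wt level against their label. They kept the label, and the genotype tests of the 10 genes are given with and without them. Since these libraries were singled out by the level of triplicated genes, the values of Dyrk1a, Rcan1 and other triplicated genes without them, p-values included, are a description and no independent test.

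The region labels were checked on marker genes. Of 5 dentate granule cell markers, 4 were higher in the HIP than in the EC of wt mice, among them Prox1 and C1ql2, and Calb1 was lower. Of 5 cortical markers, 4 were lower in the HIP, with a median log2 difference of -1.73 over the list. None of the markers was at 0 in any group.

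Dyrk1a (ENSMUSG00000022897, chr16:94570010-94695517, plus strand) encodes the kinase. In the wt HIP, its normalized read count was 90.3 to 94.2 CPM, a count scaled to the library's total after TMM normalization, with a median of 92.9 CPM. In the Ts65Dn HIP, it ranged from 89.6 to 144.0 CPM, with a median of 129 CPM. The library labelled Ts65Dn replicate 3 was the lowest, and the other 5 libraries, at 126 CPM or more, were all above the wt range. In the EC, Dyrk1a was at 95.7 to 105 CPM in wt mice (median 102 CPM) and at 92.7 to 145 CPM in Ts65Dn mice (median 139 CPM). Again, only the library labelled Ts65Dn replicate 3 was below the wt range, and the other 5 were above it.

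Dyrk1a rose 1.36-fold in the Ts65Dn HIP (95% interval 1.20 to 1.55, adjusted p = 0.0292, edgeR quasi-likelihood test) and 1.30-fold in the Ts65Dn EC (1.14 to 1.49, adjusted p = 0.0416, edgeR). Without the library labelled Ts65Dn replicate 3, the folds were 1.44 (1.36 to 1.54, adjusted p = 1.19e-05, edgeR) and 1.38 (1.30 to 1.46, adjusted p = 3.82e-05, edgeR). The interval in the HIP held 1.5, the ratio of 3 gene copies to 2, and that in the EC lay below it, with and without this library, but reached 1.51 without wt replicate 2, 4, 5 or 6. With any other mouse left out, the call in the HIP was lost except without Ts65Dn replicate 5, and the call in the EC was lost in each of the 11 other fits, at adjusted p-values up to 0.0971 (edgeR). The exact permutation test over mice, two-sided, gave p = 0.0152 in each region, and p = 0.00217, the smallest this design can give, without the library labelled Ts65Dn replicate 3.

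Rcan1 (ENSMUSG00000022951, chr16:92391953-92470867, minus strand) encodes a calcineurin inhibitor. It is known for transcripts from an upstream start and from an internal start, of which the internal one is known to respond to NFAT, but counts per gene cannot separate them. The 250 bases before each RefSeq start (GRCm38.p6, minus strand, 5′ to 3′) and before the start of Ppp3cb, a member that fell in the EC, are shown for the core NFAT motif GGAAA, searched on both strands, with matches (GGAAA, or TTTCC where the motif is on the other strand) in capitals.
Rcan1, upstream start (chr16:92466170-92466419): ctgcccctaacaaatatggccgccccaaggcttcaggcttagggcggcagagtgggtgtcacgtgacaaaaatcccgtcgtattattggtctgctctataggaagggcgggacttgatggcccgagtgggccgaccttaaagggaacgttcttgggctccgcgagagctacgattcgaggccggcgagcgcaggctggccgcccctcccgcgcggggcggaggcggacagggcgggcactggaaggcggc
Rcan1, internal start (chr16:92400079-92400328): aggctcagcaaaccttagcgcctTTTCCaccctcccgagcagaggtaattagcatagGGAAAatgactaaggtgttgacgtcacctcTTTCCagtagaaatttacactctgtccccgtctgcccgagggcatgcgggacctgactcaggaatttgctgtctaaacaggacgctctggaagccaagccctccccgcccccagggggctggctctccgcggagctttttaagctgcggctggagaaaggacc
Ppp3cb (chr14:20546574-20546823): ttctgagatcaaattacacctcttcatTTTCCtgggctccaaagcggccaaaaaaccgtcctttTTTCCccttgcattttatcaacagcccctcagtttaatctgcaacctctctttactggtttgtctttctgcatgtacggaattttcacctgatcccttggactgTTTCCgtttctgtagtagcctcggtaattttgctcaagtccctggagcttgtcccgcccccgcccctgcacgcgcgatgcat
The upstream stretch of Rcan1 held 0 matches and its internal stretch held 3, as did that of Ppp3cb, which was chosen after its values were seen. Over the 15 such stretches of 8 members, 6 held 0 matches, among them that of Ppp3r1, the other member that fell in the EC, 3 held 1 match, 2 held 2 and 4 held 3, the remaining ones with 3 being of Nfatc2 and Nfatc4. Of 32851 such stretches of all genes, 55.6% held at least 1 match, 21.4% at least 2 and 6.39% at least 3. Of the other members, Nfatc1 was left out of this search and Ppp3ca had no start in the set of stretches used. A match is a run of letters, not a known site.

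In the wt HIP, Rcan1 was at 49.8 to 53.4 CPM (median 51.8 CPM), and in the Ts65Dn HIP it was at 52.3 to 88.5 CPM (median 81.4 CPM). The 52.3 CPM of the library labelled Ts65Dn replicate 3 was inside the wt range, and the other 5 Ts65Dn libraries, from 74.0 CPM, were above it. In the EC, Rcan1 was at 62.9 to 71.9 CPM in wt mice (median 66.9 CPM) and at 84.7 to 113 CPM in Ts65Dn mice (median 105 CPM). The 2 groups did not overlap in the EC. There, the library labelled Ts65Dn replicate 3 was again the lowest of its group, but at 1.26-fold over the wt mean it stood above every wt library, whereas its Dyrk1a stood at 0.915-fold.

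Rcan1 rose 1.48-fold in the Ts65Dn HIP (1.28 to 1.71, adjusted p = 0.0167, edgeR) and 1.52-fold in the Ts65Dn EC (1.38 to 1.68, adjusted p = 0.00147, edgeR). Without the library labelled Ts65Dn replicate 3, the fold was 1.58 in both regions (1.47 to 1.69 in each), and the intervals held 1.5 with and without it. Rcan1 stayed called in all 24 fits that left out 1 mouse, with adjusted p-values up to 0.0456 in the HIP and 0.00801 in the EC (edgeR). Its call in the HIP was lost with a replicate block over same-numbered wt and Ts65Dn mice, which are different animals (adjusted p = 0.0795, edgeR). It was also lost there with the adjustment for GC content and length given below. The exact permutation test gave p = 0.00217 for the EC and p = 0.00866 for the HIP, and p = 0.00217 for each without the library labelled Ts65Dn replicate 3.

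Among the tested Mmu16 genes of the segment, ordered from the highest fold, Rcan1 was at place 25 of 90 for the HIP and at place 17 of 87 for the EC, and Dyrk1a was at place 61 and 73. The median fold over these genes was 1.41 for the HIP and 1.42 for the EC, with interquartile ranges of 1.34 to 1.49 and 1.33 to 1.47. Dyrk1a in the EC was thus below the middle of the segment's genes and Rcan1 above it. Without the library labelled Ts65Dn replicate 3, the medians were 1.48 in each region. The genotype by region term of a fit over all 24 libraries, which tests whether the genotype difference differs between HIP and EC, was 0.06 on the log2 scale for Dyrk1a (95% interval -0.05 to 0.18) and -0.05 for Rcan1 (-0.22 to 0.12), and 0.06 and -0.002 without the library labelled Ts65Dn replicate 3.

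**Figure D1:**
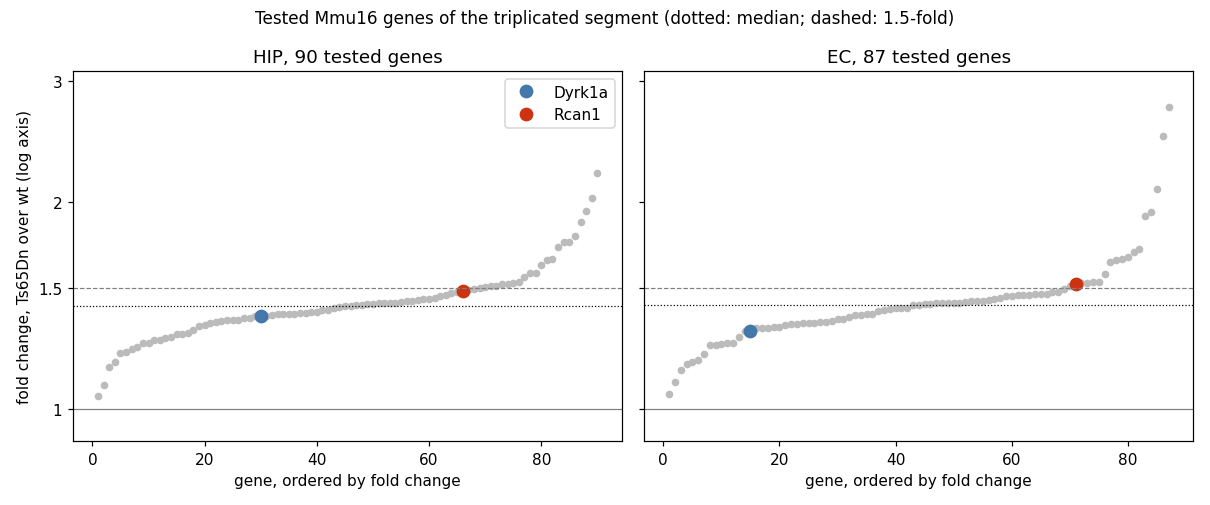
Fold change of Ts65Dn over wt (y axis, log scale) for the 90 tested Mmu16 genes in the HIP and the 87 in the EC, ordered from the lowest fold (x axis), with Dyrk1a and Rcan1 coloured, the median dotted and 1.5-fold dashed. Rcan1 lies close to 1.5-fold in both panels and Dyrk1a lies below the median, at 1.41 (HIP) and 1.42 (EC).

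Across all genes, edgeR called 181 of 17355 tested genes in the HIP, or 1.04%, and 426 of 17049 in the EC, or 2.50%, at an adjusted p under 0.05. All 10 members passed the filter on low counts. In the HIP, 2 of the 10 were called, Dyrk1a and Rcan1. In the EC, 4 were called, the same 2 as higher and Ppp3cb and Ppp3r1 as lower, where 1.35% of all tested genes were called lower. Without the library labelled Ts65Dn replicate 3, 2.79% of genes were called for the EC and 1.82% for the HIP, and the called members were the same 4 and 2. With an adjustment for GC content and length of the genes, chosen after seeing the data, the members called were 0 in the HIP, where Dyrk1a (adjusted p = 0.0555, edgeR) and Rcan1 (adjusted p = 0.0559, edgeR) missed the threshold, and 2 in the EC, Dyrk1a and Rcan1. With that adjustment and without the library labelled Ts65Dn replicate 3, both were called in each region and no other member was.

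**Figure D2:**
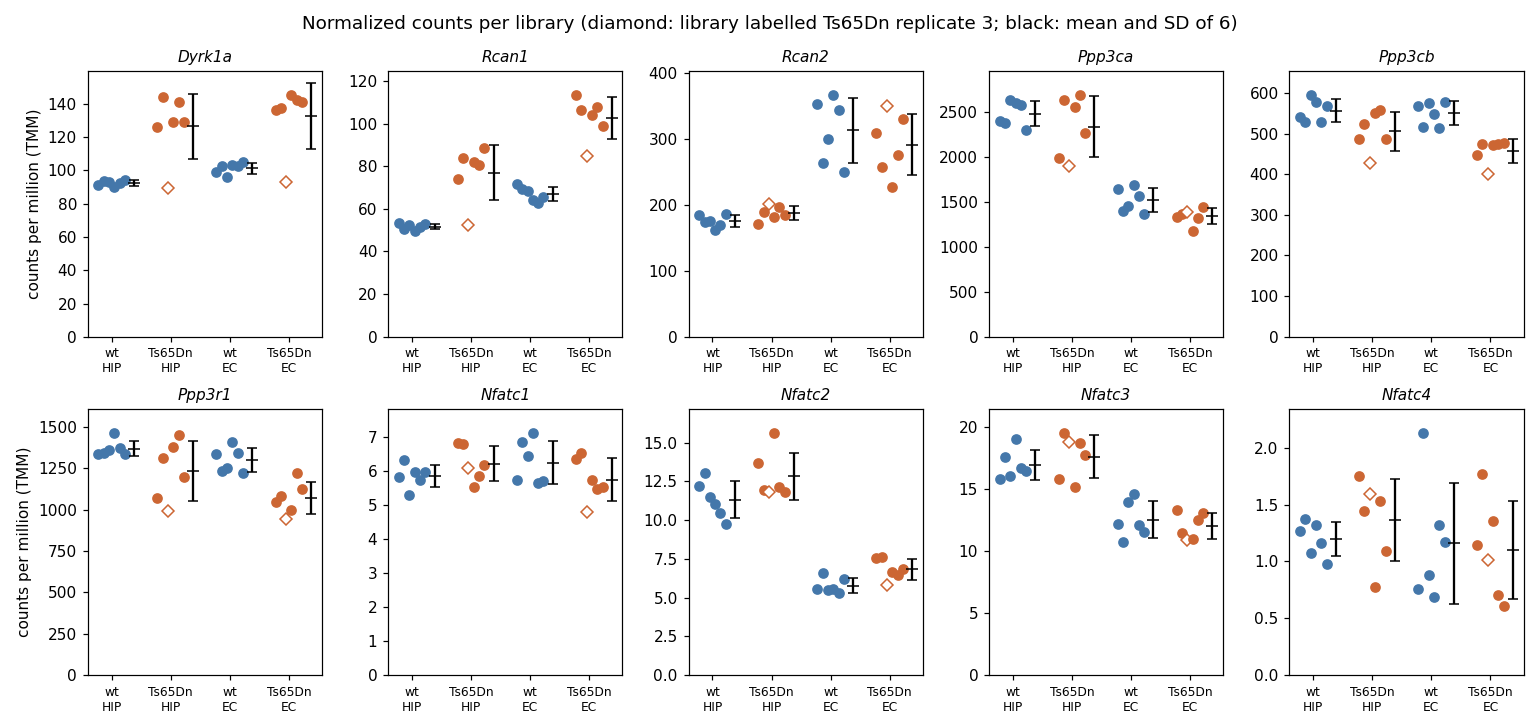
Normalized count (y axis, CPM from 0) of the 10 genes in the 24 libraries by group (x axis), with circles for libraries, open diamonds for the library labelled Ts65Dn replicate 3 and black bars for the mean and SD of 6. For Dyrk1a, 5 Ts65Dn libraries per region are above all wt libraries, and for Rcan1 5 in the HIP and all 6 in the EC are. In Ppp3cb and Ppp3r1 all 6 Ts65Dn EC libraries are below all wt EC libraries, and the open diamond is the lowest of them.

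Among the 10 genes, the catalytic subunits of calcineurin are Ppp3ca (chr3:136670124-136937727) and Ppp3cb (chr14:20499364-20546573), and the regulatory subunit in brain is Ppp3r1 (chr11:17159263-17200375). Ppp3cb and Ppp3r1 fell in the Ts65Dn EC. In wt mice, Ppp3cb in the EC was at 513 to 578 CPM (median 558 CPM). In Ts65Dn mice it was at 400.4 to 476 CPM (median 472 CPM), so that the groups did not overlap. The library labelled Ts65Dn replicate 3 was the lowest, and the other 5, between 448.0 and 476 CPM, were still below every wt library.

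Ppp3r1 in the EC was at 1225 to 1409 CPM in wt mice (median 1295 CPM) and at 946 to 1220 CPM in Ts65Dn mice (median 1063 CPM). The groups did not overlap, although the highest Ts65Dn library and the lowest wt library were close. The library labelled Ts65Dn replicate 3 was the lowest, and the other Ts65Dn libraries were at 999.7 to 1220 CPM. Of its exon sequence, 462 bases overlap exons of Wdr92 on the same strand, so that some of its reads may be uncertain.

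The log2 fold change in the EC was -0.28 for Ppp3cb (SE 0.05, adjusted p = 0.0200, edgeR) and -0.29 for Ppp3r1 (SE 0.06, adjusted p = 0.0309, edgeR), or folds of 0.826 and 0.818. The exact permutation test gave p = 0.00217 for each, with and without the library labelled Ts65Dn replicate 3. Without it, the log2 fold changes were -0.24 (adjusted p = 0.0138, edgeR) and -0.26 (adjusted p = 0.0373, edgeR). The call of Ppp3cb was lost without Ts65Dn replicate 1 (adjusted p = 0.0588, edgeR). That of Ppp3r1 was lost without Ts65Dn replicate 1, 2 or 4 or wt replicate 1, 3, 4 or 5, at adjusted p-values up to 0.0817 (edgeR).

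The GC content of the transcripts moved with this result. With GC content and length taken out, the log2 fold changes in the EC were -0.15 for Ppp3cb (adjusted p = 0.133, edgeR) and -0.21 for Ppp3r1 (adjusted p = 0.0730, edgeR), and without the library labelled Ts65Dn replicate 3 they were -0.14 (adjusted p = 0.134, edgeR) and -0.20 (adjusted p = 0.0750, edgeR). Ppp3cb (39.8% GC) and Ppp3r1 (41.4% GC) had the lowest GC content of the 10 genes. Across genes, the deviation of a library from the wt mean correlated with GC content, with a Spearman rho of 0.08 to 0.51 in the 6 Ts65Dn EC libraries and -0.22 to 0.25 in the 6 wt EC libraries. Genes are not independent replicates, and the part of GC content in the result was not tested further.

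Of the neuronal markers, 0 of 6 were called between genotypes in the EC, and their summed level was 8533 ± 436 CPM in wt and 8135 ± 186 CPM in Ts65Dn mice (SD, n = 6), with Snap25 the most abundant. Of the other markers, Calb1, a calcium-binding protein of dentate granule cells and cortical neurons, was at 0.805-fold in the Ts65Dn EC, P2ry12, a receptor of microglia, at 0.733-fold and Drd2, a receptor of striatal neurons, at 2.94-fold, and these 3 were called. Over the 5 striatal markers, the median log2 fold change in the EC was 0.64. The part of cell make-up in the lower subunits was not tested.

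Ppp3ca, the most abundant catalytic subunit per length, was at 1365 to 1696 CPM in the wt EC (median 1518 CPM) and at 1184 to 1449 CPM in the Ts65Dn EC (median 1352 CPM). The groups overlapped, and the log2 fold change of -0.20 did not pass the test (95% interval -0.33 to -0.06, adjusted p = 0.115, edgeR), nor did its -0.20 without the library labelled Ts65Dn replicate 3 (adjusted p = 0.119, edgeR). The exact permutation p for Ppp3ca in the EC was 0.0195, and 0.0281 without that library. In the HIP, the log2 fold changes were -0.09 for Ppp3ca (-0.28 to 0.10), -0.14 for Ppp3cb (-0.28 to -0.01) and -0.15 for Ppp3r1 (-0.33 to 0.03), and none was called (adjusted p = 0.689, 0.312 and 0.434, edgeR). Of the 6 Ts65Dn HIP libraries, 4 were below the wt range for Ppp3cb, 4 for Ppp3r1 and 3 for Ppp3ca, with the library labelled Ts65Dn replicate 3 the lowest in each, and 2 were above the wt range for Ppp3ca. Without that library, the values in the HIP were -0.04, -0.10 and -0.10. The exact permutation p for Ppp3cb in the HIP was 0.0476, and 0.0887 without that library. With GC content and length taken out, its log2 fold change in the HIP was -0.05, and it turned to 0.0076 when that library was left out as well. The exact permutation p-values in the HIP of Ppp3ca and Ppp3r1 were 0.323 and 0.113.

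Rcan2 (chr17:43801351-44039516, plus strand), the RCAN paralog outside the triplicated piece of Mmu17, was at 162 to 187 CPM in the wt HIP and 171 to 202 CPM in the Ts65Dn HIP. In the EC it was at 250.5 to 367 CPM and 227 to 351 CPM. The groups overlapped in both regions, and the log2 fold changes, 0.09 in the HIP (-0.01 to 0.20) and -0.11 in the EC (-0.36 to 0.13), were not called, and nor were the 0.07 and -0.17 without the library labelled Ts65Dn replicate 3. With 1 mouse left out in turn, the value in the EC ranged from -0.17 to -0.05 and was not called in any fit. Of the summed RCAN level per exon length, Rcan1 made up 26.4% ± 0.467 in the wt HIP and 33.5% ± 4.68 in the Ts65Dn HIP, and 21.5% ± 2.55 and 30.8% ± 4.27 in the EC (SD, n = 6). The Ts65Dn shares were 35.4% ± 1.26 and 32.3% ± 2.83 (SD, n = 5) without the library labelled Ts65Dn replicate 3. Rcan2 made up the largest part of the family in each group, with group means from 58.1% to 70.0%, and Rcan3 the smallest.

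None of the 4 NFATC genes was called in either region. Nfatc2 (chr2:168476410-168601657), a calcineurin-regulated factor first known from T cells, was at 5.32 to 6.59 CPM in the wt EC (median 5.56 CPM) and 5.79 to 7.63 CPM in the Ts65Dn EC (median 6.75 CPM). Of the 6 Ts65Dn libraries, 4 were above the wt range, and the library labelled Ts65Dn replicate 3 was the lowest. The log2 fold change was 0.23 (95% interval 0.03 to 0.43, adjusted p = 0.189, edgeR), and 0.28 without that library (adjusted p = 0.110, edgeR). In the HIP, the log2 fold change of Nfatc2 was 0.17 (-0.02 to 0.37, adjusted p = 0.405, edgeR), and 0.20 without that library (adjusted p = 0.323, edgeR). The exact permutation p for Nfatc2 in the EC was 0.0152, and 0.00866 without that library, among 20 such tests run over the 10 genes and both regions.

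Nfatc1 (chr18:80606205-80713071) had log2 fold changes of 0.08 in the HIP (-0.09 to 0.25) and -0.13 in the EC (-0.34 to 0.08). Nfatc3 (chr8:106058840-106130537) had 0.05 in the HIP (-0.11 to 0.21) and -0.07 in the EC (-0.26 to 0.12), and 219 bases of its exons overlap Esrp2 on the other strand. Nfatc4 (chr14:55823144-55833943) was the lowest of the 10 genes, with 17 to 64 counts per library. Its intervals, -0.73 to 0.58 in the EC and -0.22 to 0.59 in the HIP, were the widest of the 10 genes in each region. The log2 fold changes in the HIP without the library labelled Ts65Dn replicate 3 were 0.09 for Nfatc1, 0.03 for Nfatc3 and 0.14 for Nfatc4, and those in the EC were -0.08, -0.04 and -0.05.

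**Figure D3:**
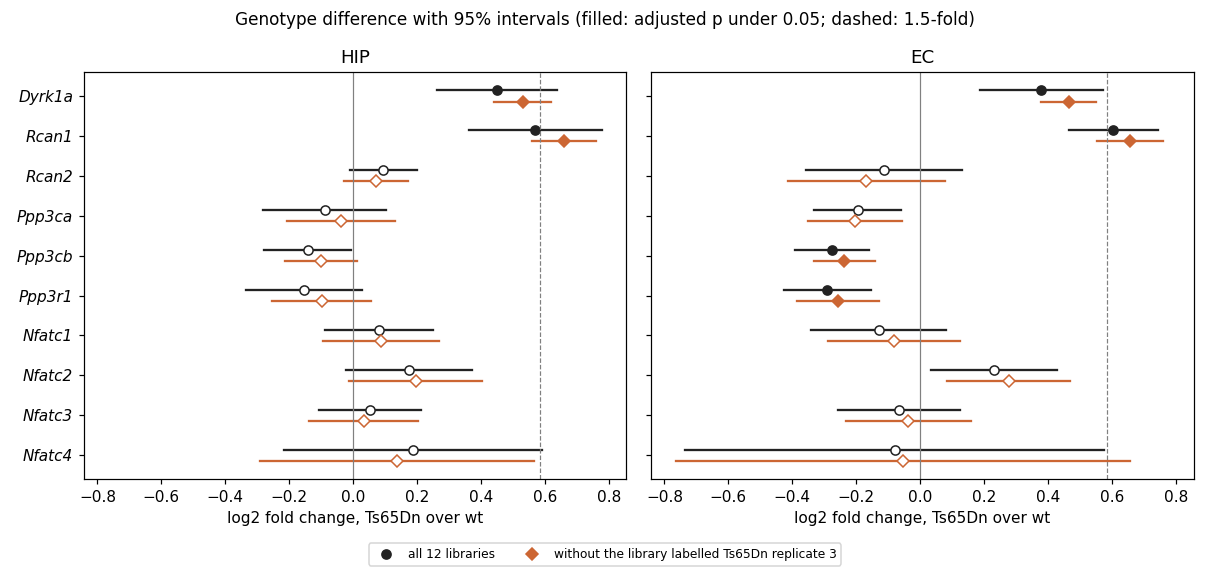
Log2 fold change of Ts65Dn over wt (x axis) with its 95% interval for the 10 genes (y axis) in the HIP and the EC, over all 12 libraries (circles) and without the library labelled Ts65Dn replicate 3 (diamonds), filled where the adjusted p was under 0.05. Rcan1 lies near the dashed line at 1.5-fold in both regions, the interval of Dyrk1a in the EC lies below that line, and only Ppp3cb and Ppp3r1 in the EC are filled to the left of 0.

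Levels were compared between genes only per length, as CPM per kb of merged exon. Merged exons can be much longer than a transcript. They span 9981 bases for Ppp3ca, 8809 for Ppp3cb and 3228 for Ppp3r1, where the longest transcripts have 4758, 3831 and 2859 bases. The order of genes can thus depend on the length used, and no other length was tried. In the wt HIP, the order of mean levels was Ppp3r1 at 424 ± 14.8, Ppp3ca at 249 ± 13.8, Ppp3cb at 63.2 ± 3.16, Rcan2 at 40.1 ± 2.13, Rcan1 at 16.8 ± 0.437 and Dyrk1a at 11.2 ± 0.190 CPM per kb (SD, n = 6). The NFATC genes followed far below, from Nfatc3 at 1.45 ± 0.103 to Nfatc4 at 0.206 ± 0.0261 CPM per kb. Per merged exon length, all neighbours in this order had ranges over libraries that did not overlap. The phosphatase subunits were thus measured at far higher levels than the factors they act on.

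In the wt EC, Rcan2 at 71.7 ± 11.2 CPM per kb stood above Ppp3cb at 62.4 ± 3.33, but their ranges overlapped. The ranges of Nfatc3 at 1.07 ± 0.127 and Nfatc1 at 0.838 ± 0.0862 CPM per kb overlapped as well, and Nfatc2 came after both at 0.546 ± 0.0468 CPM per kb. In the Ts65Dn HIP the order was that of the wt HIP, but Rcan1 at 24.9 ± 4.20 and Dyrk1a at 15.3 ± 2.36 CPM per kb overlapped, where the library labelled Ts65Dn replicate 3 is the lowest of each, and so did Nfatc3 and Nfatc2. The Ts65Dn EC had the order of the wt EC, with overlaps between Rcan2 and Ppp3cb and between Nfatc1 and Nfatc2.

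**Figure D4:**
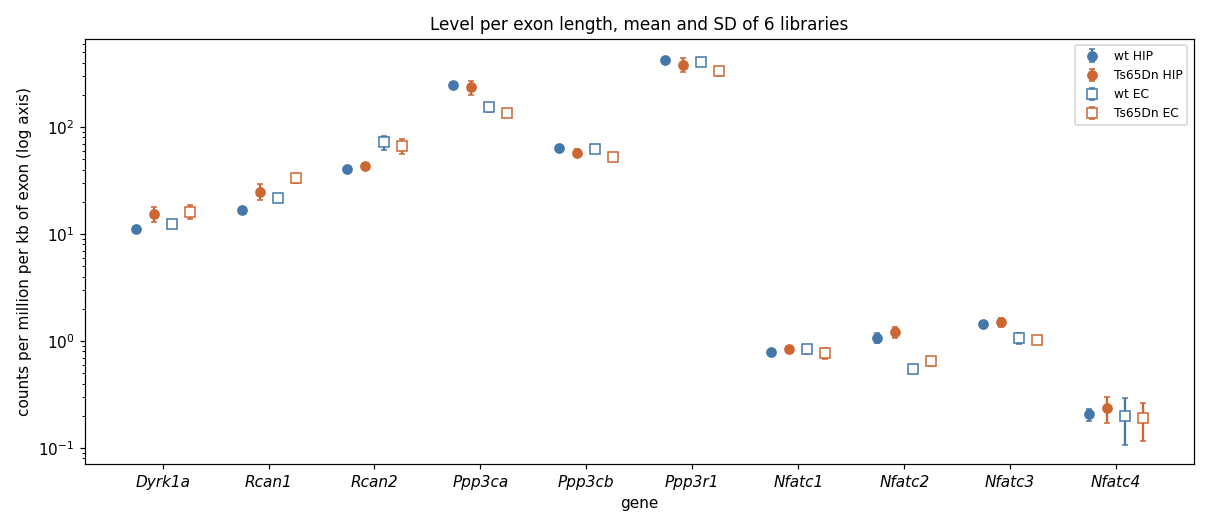
Level per exon length (y axis, CPM per kb, log scale) of the 10 genes (x axis), with points for the mean and bars for the SD of 6 libraries in each of the 4 groups. Ppp3r1 and Ppp3ca are the highest in each group and Nfatc4 is the lowest.

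The regions were compared within mice. Of all tested genes, edgeR called 61.3% between HIP and EC in wt mice and 52.3% in Ts65Dn mice, so that a called member is no exception here. In wt mice, 6 of the 10 members were called, Nfatc2, Ppp3ca and Nfatc3 as higher in the HIP, where 31.0% of all tested genes were, and Rcan2, Rcan1 and Dyrk1a as lower, where 30.3% were. In Ts65Dn mice, 7 were called, Ppp3r1 and Ppp3cb in addition as higher in the HIP, and Dyrk1a was not. The calls in Ts65Dn mice were the same in number, 7, without the library labelled Ts65Dn replicate 3.

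Nfatc2 was higher in the HIP in all 12 mice. In wt mice it was at 9.73 to 13.1 CPM in the HIP and 5.32 to 6.59 CPM in the EC, a log2 difference of 0.97 (SE 0.08, adjusted p = 1.79e-06, edgeR). Ppp3ca was also higher in the HIP of all 12 mice, at 2303 to 2637 CPM against 1365 to 1696 CPM in wt mice, a log2 difference of 0.70 (SE 0.05, adjusted p = 5.19e-07, edgeR). Neither gene overlapped between the regions in wt mice. Among the catalytic subunits per length, Ppp3ca made up 78.3% ± 0.990 of the sum with Ppp3cb and Ppp3cc in the wt HIP and 68.7% ± 2.29 in the wt EC (SD, n = 6). Nfatc3 differed by 0.44 in wt mice (SE 0.07, adjusted p = 0.000232, edgeR) and 0.54 in Ts65Dn mice (SE 0.08, adjusted p = 0.000371, edgeR).

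Rcan1 and Rcan2, which encode calcineurin inhibitors, were lower in the HIP of all 12 mice. The log2 difference of Rcan2 was -0.83 in wt mice (SE 0.09, adjusted p = 1.44e-05, edgeR) and -0.63 in Ts65Dn mice (SE 0.08, adjusted p = 9.77e-05, edgeR). That of Rcan1 was -0.38 in wt mice (SE 0.04, adjusted p = 7.39e-06, edgeR) and -0.43 in Ts65Dn mice (SE 0.07, adjusted p = 0.000472, edgeR), or -0.38 without the library labelled Ts65Dn replicate 3. Dyrk1a was lower in the HIP of 6 of 6 wt mice, by a log2 difference of -0.14 (adjusted p = 0.00465, edgeR), and of 5 of 6 Ts65Dn mice, where it was not called (-0.07, adjusted p = 0.234, edgeR). Ppp3cb and Ppp3r1 were higher in the HIP of 6 of 6 Ts65Dn mice, by 0.14 (adjusted p = 0.0353, edgeR) and 0.19 (adjusted p = 0.0295, edgeR). In wt mice, Ppp3r1 was higher in the HIP of 6 of 6 mice and Ppp3cb of 4 of 6, and neither was called. The calls in Ts65Dn mice were lost without Ts65Dn replicate 1, 2, 4 or 5 for Ppp3cb and without Ts65Dn replicate 2, 4 or 5 for Ppp3r1, at adjusted p-values up to 0.0979 and 0.0906 (edgeR). That of Ppp3cb was also lost with DESeq2 (adjusted p = 0.052, DESeq2) and with no low counts filtered out (adjusted p = 0.0750, edgeR). Without a term for the mouse, both were lost (adjusted p = 0.109 for Ppp3cb and 0.0916 for Ppp3r1, edgeR).

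Marker genes of cell types differed between the regions beside these genes. All 5 oligodendrocyte markers were higher in the wt HIP, where their summed level was 7863 ± 857 CPM against 1931 ± 537 CPM in the EC (SD, n = 6), with Mbp the most abundant. All 5 choroid plexus markers were higher as well, and their sum, mostly Ttr, ranged from 87.6 to 4830 CPM over the wt HIP libraries and from 11.7 to 49.2 CPM over the wt EC libraries. All 5 microglial and all 5 endothelial markers were lower in the wt HIP. The part of cell make-up in the regional differences of the members was not tested.

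**Figure D5:**
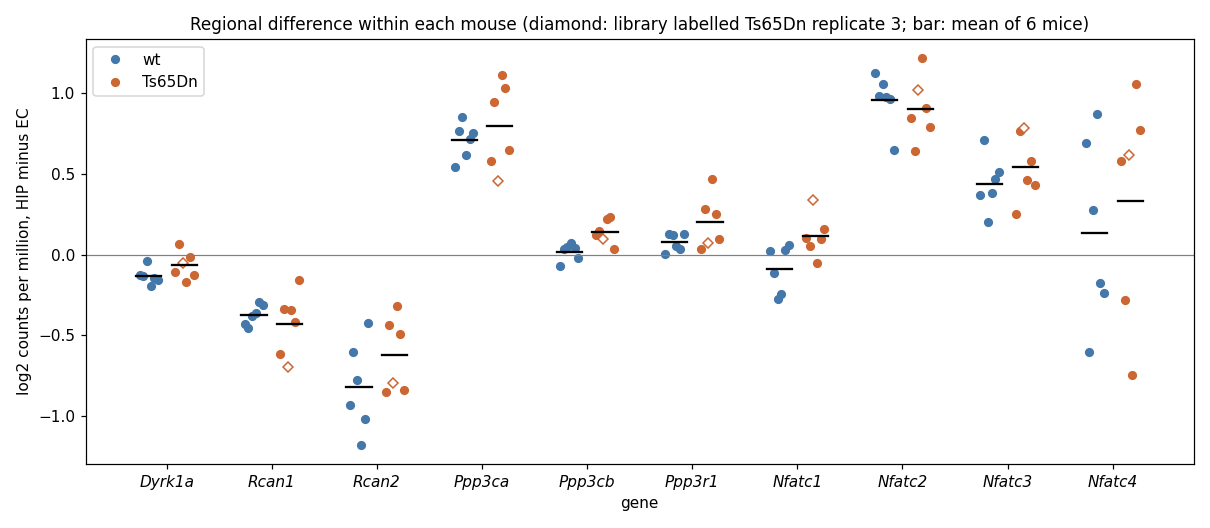
Difference in log2 CPM between HIP and EC of the same mouse (y axis) for the 10 genes (x axis), with points for mice, bars for the mean of 6 and open diamonds for the library labelled Ts65Dn replicate 3. Nfatc2, Ppp3ca and Nfatc3 are above 0 in all 12 mice, and Rcan1 and Rcan2 are below 0 in all 12.

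Whether the genotype difference itself differed between the regions was tested over all 24 libraries with a term for the mouse. No gene passed the threshold, that is 0 of 18109 (0%), with 742 at an unadjusted p under 0.05 by edgeR and 0 called by DESeq2. Of the members, Ppp3cb alone had an unadjusted p under 0.05, with a log2 term of 0.12 (95% interval 0.01 to 0.24, adjusted p = 0.9998, edgeR), and 0.13 without the library labelled Ts65Dn replicate 3 (adjusted p = 0.763, edgeR). The calls of Ppp3cb and Ppp3r1 in the EC and not in the HIP are therefore not shown to be a difference between the regions.

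Around the members, 71 further genes of the pathway in 7 lists were matched, and 65 were tested in the 2 genotype comparisons. In the HIP, 3 rose and 0 fell, where 1.04% of all tested genes were called, and in the EC 2 rose and 2 fell, where 2.50% were, with median log2 fold changes over the 65 genes of -0.01 in each region, against 0.00 over all genes tested in each region. The called genes and their number were the same without the library labelled Ts65Dn replicate 3. App, the amyloid precursor, and Synj1, a phosphatase of synaptic vesicle recycling, are themselves triplicated Mmu16 genes. Synj1 rose in the HIP by 0.59 on the log2 scale (SE 0.12, adjusted p = 0.0335, edgeR) and 1.46-fold in the EC (adjusted p = 0.0259, edgeR), and App rose 1.48-fold (adjusted p = 0.0267, edgeR) and 1.37-fold (adjusted p = 0.0228, edgeR). The folds of Synj1 were 1.62 and 1.57 without the library labelled Ts65Dn replicate 3, and those of App 1.58 and 1.45. Over the 12 fits that each dropped a mouse, Synj1 was called in 1 for the HIP, the one without that library, and in 5 for the EC, with adjusted p-values up to 0.0844 and 0.0644 (edgeR). App was called in 5 and 8 of these, with adjusted p-values up to 0.0682 and 0.0622 (edgeR). With GC content and length taken out, neither passed the test in the HIP over all libraries (adjusted p = 0.0664 for Synj1 and 0.0555 for App, edgeR), and both did in the EC.

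Of 10 tested genes of calcium entry and release, Orai1, which forms the store-operated calcium channel, rose in the HIP. It was at 3.92 to 5.18 CPM in wt and 5.49 to 6.69 CPM in Ts65Dn mice, without overlap, a log2 fold change of 0.41 (SE 0.09, adjusted p = 0.0369, edgeR). When each mouse was dropped in turn, its call was kept in 2 of 12 fits, the one without Ts65Dn replicate 2 and the one without the library labelled Ts65Dn replicate 3, and reached an adjusted p of 0.0891 (edgeR) in the others. It was also lost with GC content and length taken out (adjusted p = 0.0957, edgeR) and with no low counts filtered out (adjusted p = 0.104, edgeR). Of the 8 alternatives tried beside those 12 fits, 4 kept the call. Its value in the HIP without the library labelled Ts65Dn replicate 3 was 0.40 (adjusted p = 0.0451, edgeR). Its values in the EC, 0.26 and 0.21 without that library, were not called.

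Of 10 tested calcineurin regulators, Calm2, a calmodulin gene, fell in the EC, from 1208 ± 33.3 to 1063 ± 57.0 CPM (SD, n = 6), a log2 fold change of -0.19 (SE 0.04, adjusted p = 0.0377, edgeR). Of 14 tested calcineurin substrates, the neuronal transcription factor Mef2c fell in the EC, from 1257 ± 113 to 1010 ± 69.3 CPM, by -0.32 (SE 0.07, adjusted p = 0.0226, edgeR). Leaving out the library labelled Ts65Dn replicate 3 gave -0.20 for Calm2 (adjusted p = 0.0417, edgeR) and -0.31 for Mef2c (adjusted p = 0.0302, edgeR). With GC content and length taken out, neither passed the test (adjusted p = 0.280 for Calm2 and 0.112 for Mef2c, edgeR). Calm2 also missed the threshold with no low counts filtered out (adjusted p = 0.0866, edgeR), and Mef2c did in a fit of all 4 groups (adjusted p = 0.160, edgeR). With 1 mouse left out, Calm2 was called in 5 of 12 fits and Mef2c in 6 of 12, with adjusted p-values up to 0.0941 and 0.0623 (edgeR), each without Ts65Dn replicate 1.

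Of 8 tested DYRK and NFAT kinases other than Dyrk1a, of 4 NFAT5 and NFAT retention genes and of 7 tested NFAT target genes, 0 were called in either region by edgeR. At an unadjusted p under 0.05, which 14.8% of all tested genes reached for the HIP and 19.0% for the EC, were 10 and 16 of the 65 pathway genes, among them 1 and 2 of the kinases, 0 and 0 of the retention genes and 0 and 2 of the target genes in the HIP and the EC. The target genes had a median log2 fold change of -0.12 for the EC and -0.01 for the HIP. Of 16 tested substrates and partners of DYRK1A, App and Synj1 were the only genes called in either region.

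Between the regions of wt mice, 21 of the 65 pathway genes were higher in the HIP and 28 lower, where 31.0% of all tested genes were called higher and 30.3% lower. Of the calcineurin regulators, 0 of 10 were higher and 7 lower in the HIP, and of these Akap5, the anchor that holds calcineurin at synapses, differed by -0.63 on the log2 scale (adjusted p = 3.52e-06, edgeR). Among the genes of calcium entry and release, 6 of 10 were higher and 2 lower, with Orai2 2.59-fold and the calcium sensor Stim2 2.12-fold higher in the HIP. Homer3, a scaffold that competes with calcineurin for NFAT, was 12.0-fold higher in the HIP, at 34.2 ± 4.21 against 2.86 ± 0.650 CPM (SD, n = 6). Lrrk2 was lower, at 0.411-fold.

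Beside the same 31.0% and 30.3% of all genes, 2 of 8 genes of the kinase list were higher and 5 lower in the HIP, with Dcaf7, a partner of DYRK1A, at 0.752-fold and Csnk1a1 at 1.27-fold. Of the calcineurin substrates, 2 of 14 were higher and 6 lower, with Mef2c at 0.178-fold. Of the DYRK1A substrates and partners, 6 of 16 were higher and 5 lower, with Rest 2.07-fold and Foxo1 1.96-fold higher. Of the NFAT target genes, 2 of 7 were higher, with Ptgs2 1.57-fold higher, and 5 lower, with Egr2 at 0.210-fold. Egr2 spread from 4.01 to 16.6 CPM over the wt EC libraries.

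The genes whose log2 CPM was most like that of each member over the 24 libraries were named by Pearson's r, as a description over libraries that share groups and mice. Those of Dyrk1a were Ifnar1 (r = 0.97), Synj1 (0.97) and Ltn1 (0.96), and those of Rcan1 were Atp5o (0.96), Sod1 (0.96) and Ttc3 (0.95), all of them on Mmu16. With the group means removed, they were Gtf2h5 on Mmu17 and Morc3 and App on Mmu16 for Dyrk1a (0.95, 0.94 and 0.93), and Map2k1, Pip5k1a and Gm11966 for Rcan1 (0.89, 0.88 and 0.87). The library labelled Ts65Dn replicate 3 is low for the triplicated genes and is among these points.

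Ppp3ca was closest to Atp2b1 in both forms (0.99, and 0.91 with group means removed), and Rcan2 to Atp2b2 (0.98 and 0.91). Ppp3cb was closest to Cul3 (0.89), and to Scamp1 (0.95) with group means removed, and Ppp3r1 to Pfn2 (0.90) and to Csnk1a1 (0.88). Ppp3cb and Ppp3r1 had r = 0.86 with each other, and 0.70 with group means removed. Nfatc2 was closest to Dgkg (0.97) and Dcaf15 (0.75), Nfatc3 to Bmp2k (0.95) and Trnt1 (0.82), Nfatc1 to Abcc4 (0.69 and 0.73) and Nfatc4 to Alx4 (0.82) and Anpep (0.85). The values of Rcan2 and Nfatc2 ran opposite over the 24 libraries (r = -0.90), and less so with group means removed (r = -0.43).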

How the data were processed

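The authors aligned single-end reads with Hisat2 to GRCm38 and deposited raw counts per gene from HTSeq-count, without normalization. The study's text speaks of normalized counts, whereas the values used here are whole numbers whose totals differ between libraries. The strand setting of the counter is not given in the sources used here, and the labels and the methods name different library kits (poly-A selected mRNA and rRNA-depleted total RNA). The submitters' processing notes name DESeq2, bcl2fastq 2.17.1.14 and the mm10 build. The authors' tables of their own DESeq2 and FCROS comparisons, with fold changes and p-values, were not used. All 24 columns of counts were matched to a sample, 0 rows named no gene, and 99.6% of identifiers matched GENCODE vM21 (GRCm38).

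Counts were tested with the edgeR 4.0.16 quasi-likelihood test (TMM, filterByExpr, Benjamini-Hochberg threshold 0.05 over all genes), with DESeq2 1.42.0 as an alternative. Genotypes were compared within a region, regions within a genotype with a term for the mouse, and the interaction over all libraries with that term. Same-numbered wt and Ts65Dn mice are different animals, and the correlations of their deviations ranged from -0.20 to 0.17. The libraries of a mouse are paired by the animal in the labels, with correlations of 0.18 to 0.43. CPM were normalized by TMM, and log2 CPM used a prior count of 2. The exact permutation test took all splits of the mice. Fits were tested on simulated counts, in which 58.0% of 200 genes changed 1.5-fold were recovered in the HIP and 56.0% in the EC, so that a gene not called can have changed. The labels name no batch.

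The members and lists were chosen with earlier results of these data known. Named were all members, the genes of each pathway list past the threshold in a genotype comparison, the 2 with the largest regional difference in wt mice, and, for likeness, the closest of 3 genes by r among 18109 expressed genes. The markers were lists for neurons, dentate granule cells, CA fields, cortex, astrocytes, oligodendrocytes, microglia, endothelial cells, choroid plexus, meningeal fibroblasts, erythroid cells and striatal neurons. Nron matched 2 identifiers and has no value, and some genes that the rule names are not reported here.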

Additional observations from a re-analysis of the deposited data

Results flagged for a closer look

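In the 40 groups of 6 values, 10 genes in 4 groups, 5 values stood far from the rest of their group, and chance flags about 5% of groups. Of these, 3 were low values of the library labelled Ts65Dn replicate 3 in the triplicated genes. Dyrk1a was at 89.6 CPM in its HIP library, against 126 to 144.0 CPM in the other 5 Ts65Dn libraries, and at 92.7 CPM in its EC library, against 136 to 145 CPM. Rcan1 was at 52.3 CPM in its HIP library, against 74.0 to 88.5 CPM. In the same mouse, Ppp3cb was at 400.4 CPM in the EC, against 448.0 to 476 CPM in the other Ts65Dn libraries. The remaining value was high, Ppp3r1 at 1462 CPM in wt HIP replicate 4, against 1335 to 1375 CPM in the other wt HIP libraries.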

How the results depend on the processing

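Left-out mice, another normalization, another tool, other filters and the replicate block were tried, and a removal of GC content and length was added after seeing the data. With each mouse left out in turn, 1 to 4 members were called for the EC and 1 to 2 for the HIP. The genes called in the EC were fewest without Ts65Dn replicate 1, at 90, and most without Ts65Dn replicate 6, at 685. Those called in the HIP were fewest without Ts65Dn replicate 6, at 54, and most without the library labelled Ts65Dn replicate 3, at 318. The log2 fold change of Dyrk1a in the EC ranged from 0.35 to 0.46 in these fits, and its interval reached 1.5-fold in 4 of them, those without wt replicate 2, 4, 5 or 6. With a replicate block over the shared numbers of wt and Ts65Dn mice, which are different animals, 29 genes and 0 members were called in the HIP (2412 genes and 2 members at an unadjusted p under 0.05) and 36 genes and 1 member in the EC. Without the replicate block for the mouse, 5 members were called between the regions in Ts65Dn mice. The main fit, with that block, called 52.3% of all tested genes there, so that this count says little about the members. DESeq2 called 1098 genes for the EC and 589 for the HIP, with the same 4 and 2 members. When no low counts were filtered out, the EC had 275 called genes and the interaction 37, where no member was among them, and a fit of all 4 groups gave 768 genes for the EC. After removal of GC content and length, 75 genes and 0 members were called in the HIP (43 higher and 32 lower, against 94 and 87 before) and 141 genes and 2 members in the EC (82 and 59, against 196 and 230 before). With that removal and without the library labelled Ts65Dn replicate 3, also chosen after seeing the data, 176 genes and 2 members were called in the HIP, and 282 genes and 2 members in the EC.

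The sign of Nfatc4, the least counted member, was not stable. Its log2 fold change in the EC, -0.08, turned to 0.01 without Ts65Dn replicate 5, to 0.04 without Ts65Dn replicate 6 and to 0.19 without wt replicate 2, and was lowest without Ts65Dn replicate 2, at -0.27. Its mean difference in log2 CPM there, -0.05, turned to 0.13 without wt replicate 2, 0.002 without wt replicate 5, 0.05 without Ts65Dn replicate 5 and 0.09 without Ts65Dn replicate 6, and was lowest without Ts65Dn replicate 2, at -0.20. Between the regions of wt mice it turned to -0.02 without wt replicate 1 and -0.069 without wt replicate 4, and was highest without wt replicate 2, at 0.28. Ppp3cb in the HIP, -0.14, turned to 0.0076 with GC content and length removed and without the library labelled Ts65Dn replicate 3. No other member changed sign in any alternative, and the causes were not tested.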

Other observations

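Among the markers of cell types, 3 genes were called between genotypes. P2ry12, a receptor of microglia, was lower in Ts65Dn mice, at 0.831-fold in the HIP (adjusted p = 0.0422, edgeR) and 0.733-fold in the EC (adjusted p = 0.0226, edgeR), while the other 4 microglial markers were not called. Calb1, a calcium-binding protein of dentate granule cells and cortical neurons, was lower in the EC, at 0.805-fold (adjusted p = 0.00923, edgeR). Drd2, a dopamine receptor of striatal neurons, was 2.94-fold higher in the EC (adjusted p = 0.0254, edgeR), while 0 of the other 4 striatal markers were called. The median log2 fold change over the 5 striatal markers in the EC was 0.64, and 0.75 without the library labelled Ts65Dn replicate 3. All of these calls were kept without the library labelled Ts65Dn replicate 3, where the cortical marker Rorb was called as well, at 0.726-fold in the EC (adjusted p = 0.0422, edgeR). No marker of neurons, CA fields, cortex, astrocytes, oligodendrocytes, endothelial cells, choroid plexus, meningeal fibroblasts or erythroid cells was called between genotypes over all libraries.

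Between the regions of wt mice, 3 of 6 neuronal markers were lower in the HIP, 4 of 5 CA field markers were higher and 1 lower, 3 of 5 astrocyte markers were higher and 2 lower, and 4 of 5 erythroid markers were lower. Of the 5 markers of meningeal fibroblasts, 1 was higher in the HIP, and of the 5 of striatal neurons, 1 was higher and 3 lower.

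Nfatc4 was highest in the EC library of wt replicate 2, at 2.13 CPM, against 0.691 to 1.32 CPM in the other wt EC libraries. The summed level of the meningeal fibroblast markers was also highest there, at 113 CPM, against 36.6 to 85.9 CPM. The relation of these values was not tested.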
